A study of Schizosaccharomyces pombe with 5 samples.

Results

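The genes described here encode the proteins of the small (40S) subunit of the cytosolic ribosome of the fission yeast Schizosaccharomyces pombe. They were taken by name, as every nuclear gene whose symbol is rps followed by digits alone, looked up by systematic identifier. This gave 55 of the 6727 genes counted, and all 55 passed the filter on low counts. By the rule that copies share the symbol without its last 2 digits, 43 of them had a copy in the set. Another 12 had none, although rps2302 is a copy of rps23 by sequence. The name was checked against the annotation, which calls the product of each of the 55 a 40S ribosomal protein.

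RNA immunoprecipitation and sequencing was used to ask which RNAs associate with Slr1p, the fission yeast homolog of the RNA-binding protein LARP1. All libraries came from wild-type cells of strain yAS99, grown at 32 °C in YES, a rich medium, and fixed with formaldehyde, with no mutant or drug in any group. There were 2 libraries of RNA recovered with an antibody against Slr1p, 2 of input (total RNA, by hot phenol), and 1 of RNA recovered with non-immune rabbit IgG, which had no replicate. Total gene counts were 62802923 to 65859940 in the Slr1p and input libraries and 12882920 in IgG, and mitochondrially encoded genes took 4.73% of IgG counts against at most 0.00154% elsewhere.

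A ribosome needs its proteins in equal numbers, and the genes for them are among the most heavily transcribed in growing yeast cells. Many exist as paralogs, retained duplicates whose proteins are alike or identical while their promoters and untranslated ends differ. In animals LARP1 binds the cap and the pyrimidine-rich start of ribosomal protein mRNAs, the 5′ terminal oligopyrimidine (TOP) motif. In fission yeast, HomolD and HomolE boxes are known as promoter elements of ribosomal protein genes.

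The first 20 bases of the annotated mRNA are shown for the members with the longest pyrimidine start and for both copies of the pairs whose balance moved most. They show what the start of these mRNAs looks like and that copies of near-identical proteins begin differently. Sequences and coordinates are from RefSeq assembly ASM294v3, 5′ to 3′ on the strand of the gene, and capitals mark the longest run of C or T that begins at base 1, 2 or 3. Members with a run of at least 5 bases were these.
rps2, chrIII:2096017-2096036, - strand: aTCCTTCgttacctacacaa
rps29, chrII:516428-516447, + strand: aCCTTCacaccaaaatggcc
rps2202, chrI:1512371-1512390, - strand: gTTTTTaccacctacagttt
rps801, chrI:4287413-4287432, - strand: aTCTCCaaatcaccaacatg
The copies of the 6 pairs described most closely below were these.
rps901, chrI:476103-476122, - strand: aCCacgaaaatgccttccgc
rps902, chrII:2059771-2059790, + strand: gCgcaaagcaccaaacaaac
rps2501, chrII:1274250-1274269, + strand: aTggcacctaagaagaaatg
rps2502, chrI:4208837-4208856, - strand: aTCCacaaaatggctcccaa
rps1701, chrII:604386-604405, - strand: aaCCacttccatctcgaata
rps1702, chrIII:917852-917871, + strand: aCaggaacagaaatgggtcg
rps1001, chrI:3020309-3020328, - strand: gTCacggctaccttgtactg
rps1002, chrII:1448003-1448022, + strand: aCaaaatgcttattcccaag
rps1201, chrIII:553174-553193, + strand: aagttaccaccatgtcggaa
rps1202, chrII:499025-499044, - strand: ggagcatataatcgaggacg
rps401, chrII:3245130-3245149, + strand: gCatccaccaaaaatggttc
rps403, chrI:3399241-3399260, + strand: aaCCacgacaataccatggt
These 4 members with a run made up 7.27% of the 55, against 9.31% of 5102 nuclear protein-coding genes. The first annotated base was C or T in 1 member (1.82%) against 3.92% of those genes. Members rps21 and rps2501 were annotated from their start codon, so their true 5′ ends are not known from this source. An annotated end is not a mapped cap site, and the sources used here do not name the build and annotation behind the counts.

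Promoters were searched over the 250 bases before the annotated 5′ end for exact matches on either strand to CAGTCACA (HomolD, TGTGACTG on the other strand) and ACCCTACC (HomolE, GGTAGGGT on the other strand). An exact HomolD match was present in 34 members (61.8%) against 2.63% of all nuclear protein-coding genes. An exact HomolE match was present in 21 (38.2%) against 1.51%. Both were present in 10 members. The 120 bases upstream of rps901 and rps902 are shown because these copies differed most in their response, with capitals marking exact matches.
rps901, chrI:476123-476242, - strand: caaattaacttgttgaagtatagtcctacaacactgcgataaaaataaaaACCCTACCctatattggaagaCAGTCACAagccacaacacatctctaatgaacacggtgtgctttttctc
rps902, chrII:2059651-2059770, + strand: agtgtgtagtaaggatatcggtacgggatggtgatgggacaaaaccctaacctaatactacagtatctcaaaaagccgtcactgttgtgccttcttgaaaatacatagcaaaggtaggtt
The rps901 stretch held 1 match to each motif, and the rps902 stretch held no exact match to either. A match is a description of letters and no evidence of a bound factor. Members with an exact HomolD match had a median log2 fold change with Slr1p of 0.29 against input and 1.38 against IgG. Members without an exact match were at 0.09 and 1.29. Several of the latter held a near match with another last base, such as cagtcacg upstream of rps13, rps29 and rps101. The medians therefore do not contrast promoters with and without the box. Members with an exact HomolE match were at 0.13 against input and 1.15 against IgG, and members without one at 0.29 and 1.36. The 4 members with a pyrimidine run had a median of 0.61 against input and 1.15 against IgG. Of these 4, 2 were called higher against input and 3 against IgG, beside 35.0% and 34.0% of all genes. Of the other 51 members, 15 were called higher against input and 50 against IgG, with medians of 0.21 and 1.33.

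The 55 mRNAs were short and GC-rich beside the rest. Their annotated length ran from 315 to 1270 bases with a median of 595, against 1682 over all nuclear protein-coding genes. Median GC content was 44.1% against 37.2%, and the median annotated 5′ untranslated region was 17 bases against 79.5. Introns were annotated in 31 of the 55.

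Per kilobase, the most abundant member in input was rps21, which encodes a small protein of the subunit's solvent side, at 13328 and 9722 CPM per kilobase in the 2 libraries (CPM is a gene's share of a library's counts on a common scale, adjusted by TMM). The next was rps27, for a zinc-binding protein, at 12484 and 8846 CPM per kilobase. After these came rps2201, for uS8, at 10149.9 and 7240.4 CPM per kilobase. The least abundant were rps1401, a copy of the platform protein uS11, at 1131 and 762 CPM per kilobase, rps1001 at 986 and 992 and rps2202 at 1225 and 1001. The 2 input libraries of each of the 3 highest members lay above both libraries of each of the 3 lowest. Members were ranked by the mean of these same libraries, so this separation follows from the choice. Among neighbours in that order, rps21 overlapped with rps27, rps27 with rps2201, and rps1401 with rps1001, while both rps2202 libraries lay above both of rps1001.

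The 40S genes took 15.5% and 13.0% of all counts in the input libraries, 15.2% and 16.1% in the Slr1p libraries and 6.94% in IgG. Across the members the replicates leaned to one side. Input replicate 1 was above replicate 2 in 51 of 55 members, by a median of 1.35-fold. Slr1p replicate 2 was above replicate 1 in all 55, by a median of 1.17-fold. The lean was counted for the members alone, so a share over all genes is not given. Each library holds bulk RNA, so fewer cells holding an mRNA and less of it per cell cannot be told apart.

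**Figure D1:**
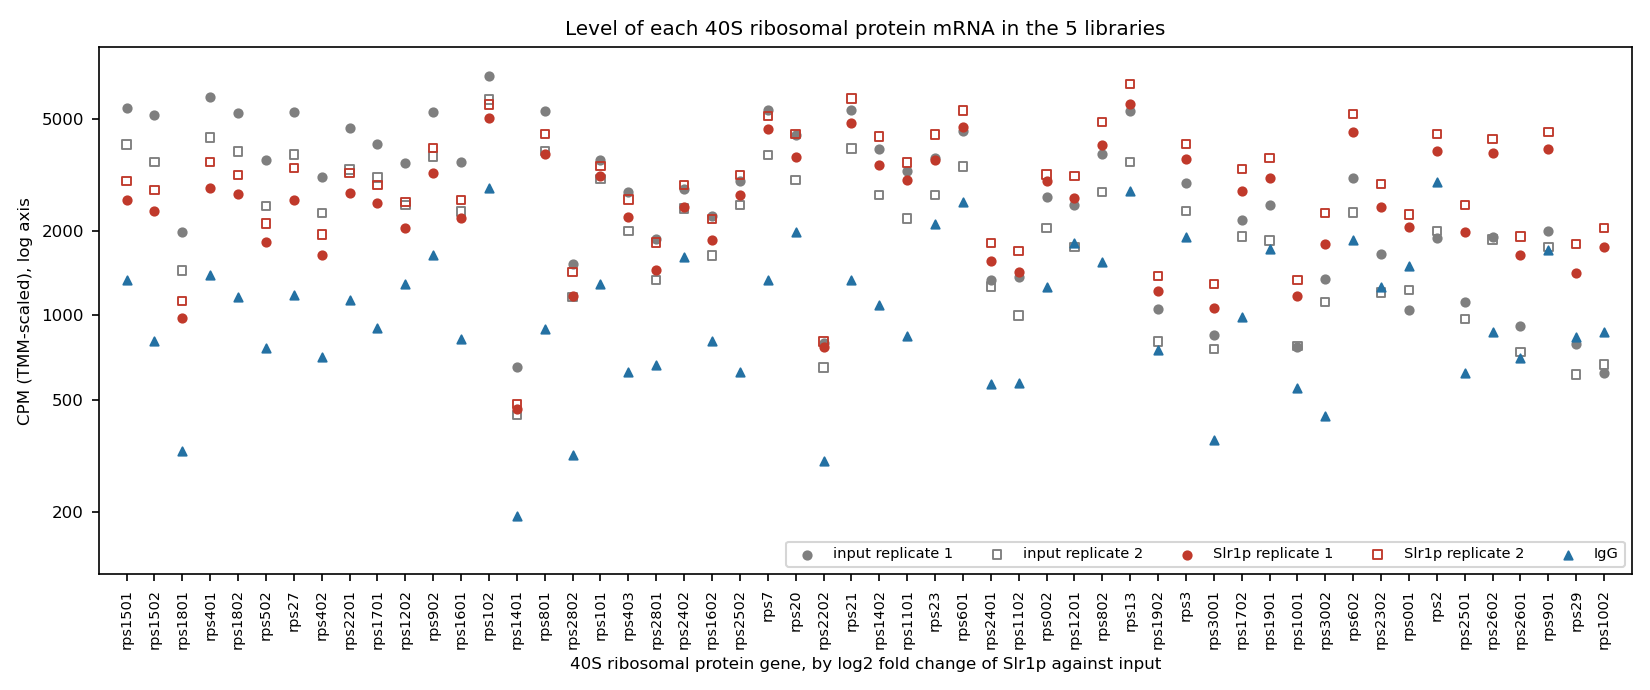
Level of each of 54 of the 55 mRNAs in each library, in TMM-scaled CPM on a log axis, with genes ordered by their log2 fold change of Slr1p against input. Points are single libraries (input grey, Slr1p red, open squares replicate 2, IgG blue triangles); IgG lies below both Slr1p libraries for every gene, while input lies above them at the left and below them at the right.

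Against input, the 40S mRNAs spread to both sides. With edgeR's quasi-likelihood test, adjusted over all 6376 genes tested, 17 of 55 were higher with Slr1p and 8 were lower, while 35.0% and 34.2% of all genes were called in these directions. Both Slr1p libraries lay above both input libraries for 24 members and below them for 11, which held for 43.9% and 41.3% of all genes. The median log2 fold change was 0.21, against 0.03 over all genes tested, and members ranged from -0.77 to 1.56. The 74 genes of the large (60S) subunit had 23 higher and 8 lower with a median of 0.21. The count rested on single libraries. Without input replicate 1 there were 26 higher and 3 lower, and without input replicate 2 there were 13 of each and the median was -0.01. Without Slr1p replicate 1, edgeR called 12 higher and 0 lower, with 14 and 0 at an unadjusted p under 0.05, while DESeq2 with all libraries called 23 and 12. Without Slr1p replicate 2 there were 9 higher and 3 lower. After correction of each library for its trend with mRNA length and GC content, 13 were higher and 18 lower with a median of -0.06. In that setting 2141 of the 6291 genes tested were higher and 2217 lower.

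The largest rise against input was that of rps1002. The rps1002 mRNA, one of the copies for eS10 at the beak side of the head, stood at 622 and 669 CPM in input, 1749 and 2045 CPM with Slr1p and 874 CPM in IgG. Both Slr1p libraries were above every other library. Its log2 fold change against input was 1.56 (SE 0.18, adjusted p = 1.17e-06) with edgeR, and against IgG it was 1.12 (SE 0.22, adjusted p = 0.000399). After correction for length and GC these were 0.67 and 0.03, the second of which was not called.

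The rps901 mRNA, for uS4 beside the mRNA entry, stood at 1999 and 1749 CPM in input and 3918 and 4489.8 CPM with Slr1p. IgG, at 1713 CPM, lay below both input libraries. The edgeR log2 fold change was 1.17 (SE 0.21, adjusted p = 0.000122) against input and 1.30 (SE 0.27, adjusted p = 0.000544) against IgG. The rps2 mRNA, for uS5, which also lines the entry and affects decoding accuracy, stood at 1885 and 2001 CPM in input, 3841 and 4412 CPM with Slr1p and 2984 CPM in IgG. IgG was between input and Slr1p. Its edgeR log2 fold change was 1.09 (SE 0.21, adjusted p = 0.000244) against input but 0.47 (SE 0.26, adjusted p = 0.122) against IgG, and it was the 1 member called higher in IgG than in input, at 0.62 (SE 0.25, adjusted p = 0.0354). That IgG call was lost without either input library and without either Slr1p library. The rps3 mRNA, for uS3 of the entry site, was at 2959 and 2354 CPM in input, 3612 and 4069 CPM with Slr1p and 1897 CPM in IgG. It was called against both controls with edgeR, at 0.53 (SE 0.21, adjusted p = 0.0366) and 1.02 (SE 0.27, adjusted p = 0.004). The call against input was lost in 7 of 11 alternative settings, among them leaving out input replicate 2 or either Slr1p library. The call against IgG was lost in 3 of 9, among them leaving out Slr1p replicate 2.

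At the mRNA exit, both copies for eS26 rose. The rps2601 mRNA stood at 916 and 741 CPM in input, 1638 and 1906 CPM with Slr1p and 707 CPM in IgG. The rps2602 mRNA, more abundant in each library, stood at 1899 and 1860.3 CPM in input, 3791 and 4244 CPM with Slr1p and 875 CPM in IgG. For both, each Slr1p library was above each of the other 3. Against input the edgeR log2 fold changes were 1.10 (SE 0.18, adjusted p = 5.87e-05) and 1.10 (SE 0.20, adjusted p = 0.000151). Against IgG they were 1.32 (SE 0.23, adjusted p = 0.000138) and 2.20 (SE 0.27, adjusted p = 4.13e-06), and the test of that difference between the copies is given with the ratios below. The rps3002 mRNA, for the small entry-site protein eS30, stood at 1352 and 1117 CPM in input, 1796 and 2313 CPM with Slr1p and 439 CPM in IgG. Its rise against IgG, 2.23 (SE 0.26, adjusted p = 2.60e-06) with edgeR, was the largest of the 55, and against input it was 0.74 (SE 0.19, adjusted p = 0.00295).

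In the head, rps29 for the zinc-binding protein uS14 stood at 793 and 617 CPM in input, 1411 and 1791 CPM with Slr1p and 839.6 CPM in IgG. Both Slr1p libraries were above the other 3, and IgG was above both input libraries. With edgeR it rose by 1.18 (SE 0.19, adjusted p = 4.17e-05) against input and 0.93 (SE 0.24, adjusted p = 0.00286) against IgG. The eS25 copies, for a head protein used by viral internal ribosome entry sites in other eukaryotes, differed in their response. The rps2501 mRNA stood at 1120.3 and 969.8 CPM in input, 1987 and 2464 CPM with Slr1p and 623 CPM in IgG, and rose by 1.09 (SE 0.19, adjusted p = 8.64e-05) against input and 1.84 (SE 0.25, adjusted p = 1.08e-05) against IgG with edgeR. The rps2502 mRNA stood at 3016 and 2464 CPM in input, 2676 and 3161 CPM with Slr1p and 632 CPM in IgG. Input and Slr1p libraries of rps2502 overlapped, and its edgeR log2 fold changes were 0.09 (SE 0.20, adjusted p = 0.706) against input and 2.21 (SE 0.28, adjusted p = 5.69e-06) against IgG. The eS19 copy rps1902 stood at 1054 and 808 CPM in input, 1222 and 1384 CPM with Slr1p and 751 CPM in IgG. It was called against both, at 0.48 (SE 0.18, adjusted p = 0.0245) and 0.80 (SE 0.23, adjusted p = 0.00593) with edgeR, but the call against input was lost in 7 of 11 alternative settings. For uS12 of the decoding centre, rps2302 stood at 1654 and 1206 CPM in input, 2425 and 2928 CPM with Slr1p and 1259 CPM in IgG. It rose by 0.90 (SE 0.21, adjusted p = 0.00115) and 1.09 (SE 0.27, adjusted p = 0.00207) with edgeR, and its relative rps23 was at 0.34 against input, not called, and 0.91 against IgG.

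Other members higher than both controls with edgeR included rps602 (eS6) at 0.84 against input and 1.38 against IgG. The rps1901 mRNA (eS19) was at 0.64 and 0.96, and rps3001 (eS30) at 0.55 and 1.71. Against input rps602 lost its call in 3 of 11 alternative settings, and rps1901 and rps3001 in 5 each, all 3 without Slr1p replicate 2. Without that library the calls of rps1001 and rps3002 against input were lost too, as were those of rps29, rps1902, rps23, rps13 and rps20 against IgG. With length and GC corrected rps602 was called against neither control, and with abundance as well rps1901 was at -0.20 against IgG. The 30 members not called against input lay between -0.42 for rps2201 and 0.48 for rps13.

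The 8 members lower with Slr1p than in input came from 5 protein families, and 6 of them were uS13, uS19 or eS4 copies, chosen for naming here after their values were seen. The uS19 proteins sit in the head with a tail that reaches the decoding site. The rps1501 mRNA stood at 5467 and 4049 CPM in input, 2567 and 3009.8 CPM with Slr1p and 1334 CPM in IgG. The rps1502 mRNA stood at 5157 and 3515 CPM in input, 2349 and 2788 CPM with Slr1p and 813 CPM in IgG. For both copies, input was highest, Slr1p next and IgG lowest, with no overlap. The edgeR log2 fold changes against input were -0.77 (SE 0.23, adjusted p = 0.00639) and -0.76 (SE 0.23, adjusted p = 0.00836).

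The uS13 proteins sit in the head at a bridge to the large subunit. The rps1801 mRNA stood at 1976 and 1445 CPM in input, 978 and 1126 CPM with Slr1p and 331 CPM in IgG. The rps1802 mRNA stood at 5232 and 3830.2 CPM in input, 2704 and 3155 CPM with Slr1p and 1159 CPM in IgG. Their libraries kept the same order, input above Slr1p above IgG, and the edgeR log2 fold changes against input were -0.70 (SE 0.19, adjusted p = 0.00373) and -0.63 (SE 0.22, adjusted p = 0.0206). Of the eS4 copies, which belong to the body, rps401 stood at 5969 and 4294 CPM in input, 2841 and 3517 CPM with Slr1p and 1390.3 CPM in IgG, with an edgeR log2 fold change of -0.69 (SE 0.23, adjusted p = 0.0154). Of the other eS4 copies, rps402 was at -0.60 with edgeR, also called, and rps403 at 0.03, not called. The lowered members were higher with Slr1p than in IgG. With edgeR the rise was, for example, 1.67 (SE 0.25, adjusted p = 2.96e-05) for rps1801 and 1.19 (SE 0.30, adjusted p = 0.00262) for rps401. No fall against input was called in every one of the 11 alternative settings, and leaving out Slr1p replicate 1 removed all 8.

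Members without a copy by symbol spread in the same way. The rps27 mRNA stood at 5268 and 3733 CPM in input, 2566 and 3345 CPM with Slr1p and 1187 CPM in IgG, and its edgeR log2 fold change against input was -0.61 (SE 0.23, adjusted p = 0.0307). The rps502 mRNA stood at 3577 and 2448 CPM in input, 1831 and 2123 CPM with Slr1p and 764 CPM in IgG, and its edgeR log2 fold change against input was -0.61 (SE 0.22, adjusted p = 0.0204). Of the 50-base windows of rps502 38.3% also occur elsewhere in the genome, and the sources used here do not say how reads with more than 1 place were counted. Against input, rps7, rps13, rps20 and rps21 were not called, with log2 fold changes of 0.10, 0.48, 0.12 and 0.21. Against IgG all 4 rose, by 1.86, 1.15, 1.03 and 2.01 with edgeR.

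Windows found elsewhere too were present in 12 members, rps502 with the largest share. None of these 12 was higher with Slr1p than in input and 2 were lower, with a median log2 fold change of -0.14, against 17 higher and 6 lower of the 43 others with a median of 0.37. All 12 were higher with Slr1p than in IgG, as were 41 of the 43 others, beside 34.0% of all genes. Against input, 35.0% of all genes were called higher and 34.2% lower. The part of read placement in these values was not tested.

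By place in the subunit, 8 of 23 head proteins were higher and 5 lower relative to input (median 0.06), and 9 of 32 proteins of the body and platform were higher and 3 lower, with a median of 0.30. The shares higher were close to or below the 35.0% of all genes, and both shares lower were below 34.2%. Against IgG the medians were 1.30 and 1.34. Across the 55 members the log2 fold change against input had a Pearson correlation of -0.59 with log2 of the mean input CPM. Its Spearman correlation with that CPM was -0.62. The input libraries enter both measures, so this is a description only.

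Against IgG, the 40S mRNAs stood almost wholly to one side. With edgeR, 53 of 55 were higher with Slr1p and 0 were lower (54 and 0 at an unadjusted p under 0.05, 55 and 0 with DESeq2), against 34.0% and 32.3% of all genes. For all 55, both Slr1p libraries lay above the IgG library, as for 50.3% of all genes, with 45.7% the other way. Without Slr1p replicate 2 the 53 became 39. The median log2 fold change was 1.33 beside 0.07 over all genes tested, and members ranged from 0.47 to 2.23. The 60S genes had 72 of 74 higher and 0 lower, with a median of 1.37. The 2 members not called were rps2 and rps001, a copy for uS2, which stood at 1041 and 1229.97 CPM in input, 2067 and 2287 CPM with Slr1p and 1499 CPM in IgG. IgG for rps001 was above both input libraries and below both Slr1p libraries. The test took the spread of the other groups for IgG, which had no replicate of its own.

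Annotated length moved with the IgG comparison. Across 6291 genes with a length, the log2 fold change against IgG had a Pearson correlation of -0.42 with log2 of length. Within the 55 members it was -0.31. After correction for length and GC, 37 members were higher than IgG and 1 lower, with a median of 0.64. Of the 6291 genes tested in that setting, 1497 were higher and 1621 lower. After correction for abundance too, 22 members were higher and 6 lower, with a median of 0.25, beside 1627 and 1705 of the 6291 genes. The part of length in the difference from IgG was not tested beyond these settings.

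**Figure D2:**
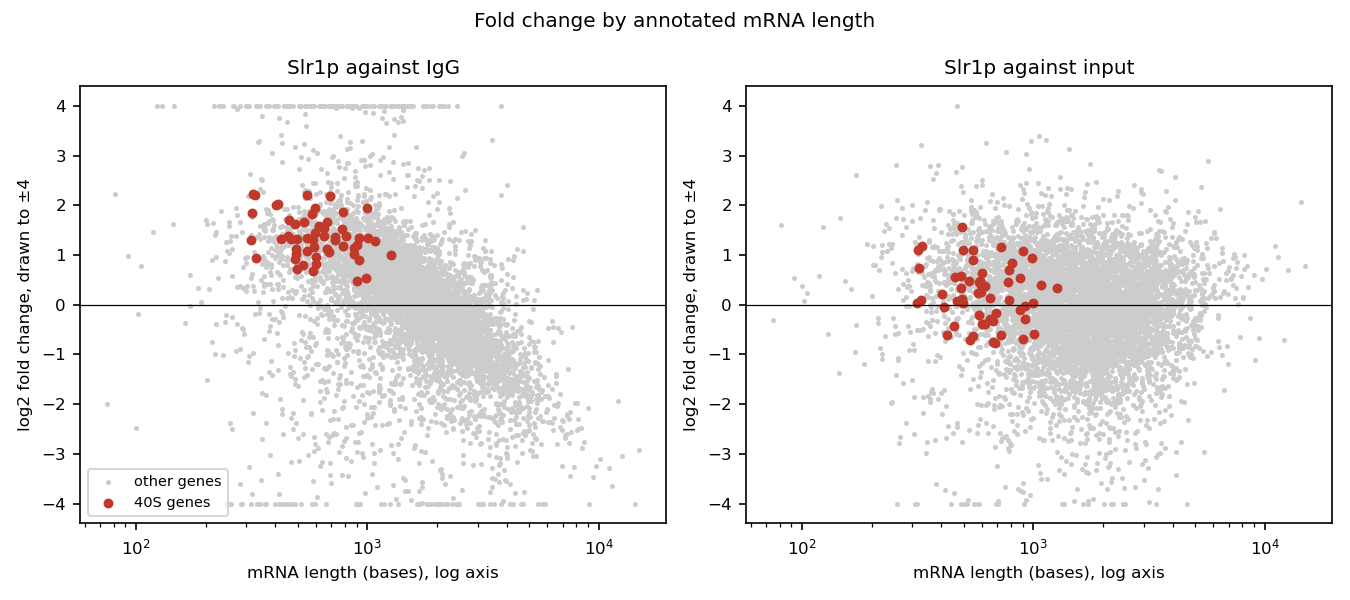
Log2 fold change against annotated mRNA length in bases on a log axis, for Slr1p against IgG at the left and against input at the right. Each grey point is another gene, drawn no further than 4 from 0, and each red point is 1 of the 55 40S genes, all between 315 and 1270 bases; against IgG the grey cloud falls with length and the red points lie above 0.

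The largest differences from IgG included rps2802, for eS28 near the mRNA exit, which stood at 1524 and 1163 CPM in input, 1175 and 1424 CPM with Slr1p and 319 CPM in IgG. Input and Slr1p overlapped and IgG was far below, giving an edgeR log2 fold change of 2.02 (SE 0.25, adjusted p = 4.64e-06) against IgG and -0.05 (SE 0.19, adjusted p = 0.83) against input. The rps801 mRNA, for eS8 of the body, behaved likewise at 5315 and 3851 CPM in input, 3756 and 4409.8 CPM with Slr1p and 895 CPM in IgG, with edgeR values of 2.19 (SE 0.31, adjusted p = 1.91e-05) and -0.17 (SE 0.23, adjusted p = 0.532). The smallest called differences from IgG were those of rps1201, for eS12 of the beak, and rps2402, for eS24. The rps1201 mRNA stood at 2465 and 1751 CPM in input, 2623 and 3131 CPM with Slr1p and 1809 CPM in IgG, and its edgeR log2 fold change was 0.67 (SE 0.27, adjusted p = 0.0409). For rps2402 the levels were 2823 and 2398 CPM in input, 2424 and 2912 CPM with Slr1p and 1619 CPM in IgG, and the edgeR value was 0.72 (SE 0.26, adjusted p = 0.022). Both of these calls were lost without either Slr1p library.

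The IgG library also differed from input. With edgeR 1 member was higher in IgG and 40 were lower, against 34.1% and 36.5% of all genes, with a median of -1.21. IgG lay above both input libraries for 4 members and below both for 49, beside 45.3% and 48.9% of all genes. The comparisons share libraries, so the 3 are given side by side. Members higher with Slr1p than in both controls numbered 15, beside 13.5% of all genes tested and 23 of the 74 60S genes. Another 2 were higher than input alone, beside 11.9% of all genes, 8 were lower than input and higher than IgG, beside 9.88%, and 30 were higher than IgG alone, beside 10.6%. For input there were 11 alternative settings, and 9 of the 17 rises were called in every one. For IgG there were 9 settings, and 20 of the 53 rises were called in every one. These counts were made for the members alone, so no share over all genes stands beside them. Only rps2501 and rps2602 were in both of these sets of rises. After correction for abundance too they were called higher than either control.

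**Figure D3:**
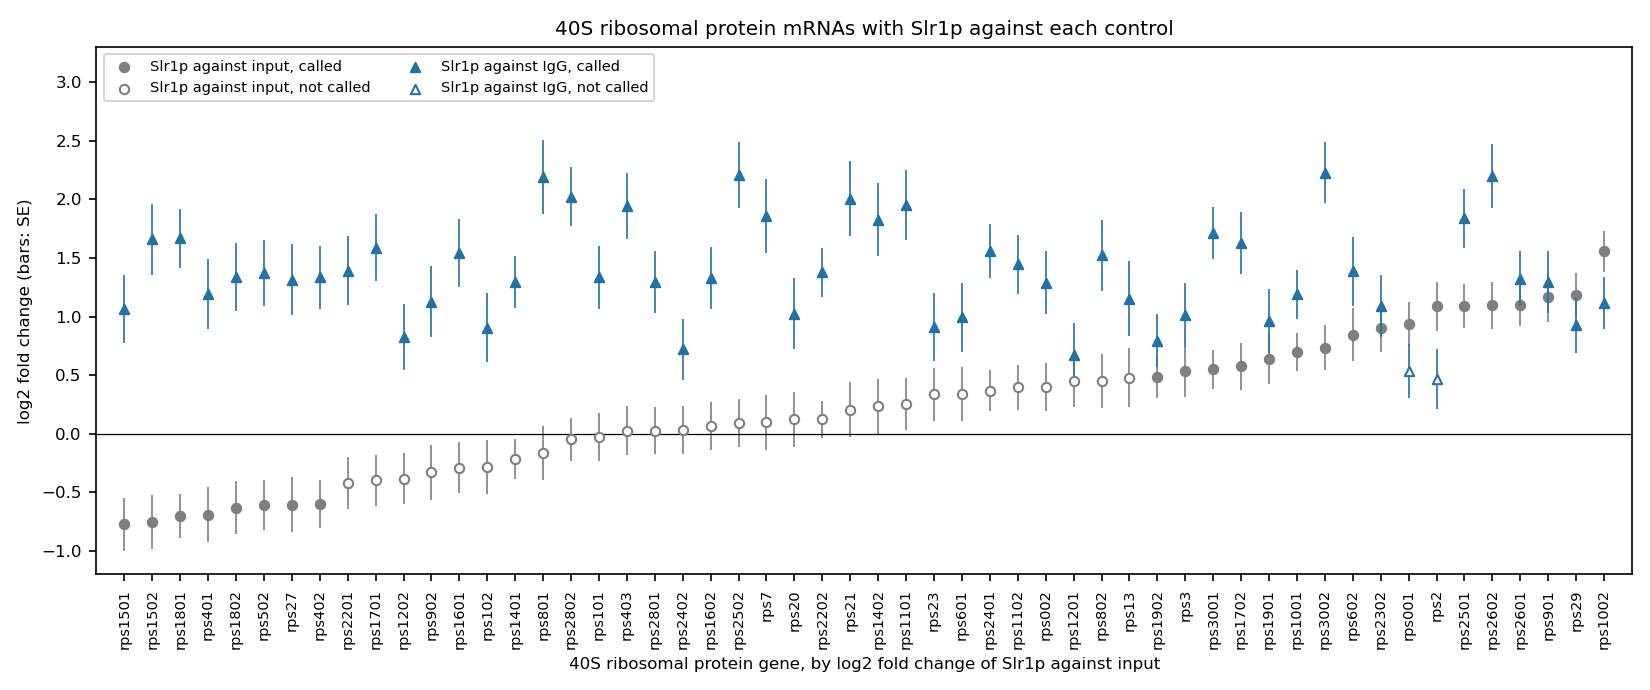
Log2 fold change with its standard error for each of 54 of the 55 genes, Slr1p against input as grey circles and against IgG as blue triangles, with filled symbols called under an edgeR adjusted p of 0.05. The circles run from -0.77 to 1.56 across 0, the triangles lie between 0.47 and 2.23, and the 2 open triangles are rps2 and rps001.

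Paralogs were compared within each library by the log2 ratio of the counts of the second copy to the first, which needs no scaling between libraries but does depend on the lengths of the copies. There were 22 such pairs among the 40S genes, with 3 copies of eS4 giving 2 pairs that share rps401. The protein sequences of 7 of these pairs were identical, and rps001 with rps002 were least alike at 79.6% identity. In input the copies differed by 1.11-fold to 5.97-fold in counts, and 9 pairs were more than 2-fold apart in both input libraries. The largest gap was between rps1402 and rps1401, whose proteins are identical. In 20 of the 22 pairs both Slr1p ratios lay on one side of both input ratios. This separation was counted for the 40S pairs alone, so no share over all pairs of ribosomal protein genes stands beside it.

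With limma over the 53 pairs of ribosomal protein genes, 14 of the 22 ratios differed between Slr1p and input, against 81.1% of all 53 pairs and 29 of the 31 60S pairs. Against IgG 13 differed, beside 43.4% of all pairs. Between IgG and input 16 differed, beside 73.6% of all pairs. Leaving out either Slr1p library reduced the 14 to 9, and the 13 to 3 without replicate 1 and 2 without replicate 2. Where a library is left out, the lone one of its group is assumed to vary like the others. The ratio test had 2 residual and 1.90 prior degrees of freedom.

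The balance of the uS4 copies moved most. The log2 ratio of rps902 to rps901 was 1.40 and 1.07 in input, -0.29 and -0.19 with Slr1p and -0.07 in IgG. Thus rps902 gave more counts in input and rps901 gave more in the immunoprecipitations, and the difference from input was -1.48 (SE 0.13, adjusted p = 0.0014) by limma. Against IgG it was -0.17 (SE 0.16, adjusted p = 0.387). The rps902 mRNA itself stood at 5281 and 3675 CPM in input, 3199 and 3939 CPM with Slr1p and 1633 CPM in IgG, and was not called against input. The proteins are 98.4% identical, and rps901 carries an intron that rps902 lacks in the annotation. After correction for length and GC the difference from input was -1.62 (limma adjusted p = 0.000746).

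For eS25, the log2 ratio of rps2502 to rps2501 was 1.43 and 1.35 in input, 0.43 and 0.36 with Slr1p and 0.02 in IgG. The Slr1p values lay between input and IgG, and limma called the ratio in opposite directions, -0.99 (SE 0.06, adjusted p = 0.000737) against input and 0.37 (SE 0.07, adjusted p = 0.0162) against IgG. For eS17 of the head, the log2 ratio of rps1702 to rps1701 was -0.90 and -0.70 in input, 0.14 and 0.19 with Slr1p and 0.13 in IgG. By limma the difference was 0.96 (SE 0.08, adjusted p = 0.00138) against input and 0.04 (SE 0.10, adjusted p = 0.792) against IgG. The rps1701 mRNA stood at 4061 and 3095 CPM in input, 2519.6 and 2911 CPM with Slr1p and 903 CPM in IgG. The rps1702 mRNA stood at 2183 and 1906 CPM in input, 2768 and 3321 CPM with Slr1p and 985 CPM in IgG. With edgeR it was called higher than both controls, at 0.57 against input and 1.63 against IgG. The call against input was lost in 7 of 11 alternative settings.

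For eS10, the log2 ratio of rps1002 to rps1001 was -0.31 and -0.22 in input, 0.58 and 0.62 with Slr1p and 0.67 in IgG. By limma the difference was 0.86 (SE 0.05, adjusted p = 0.000844) against input and -0.07 (SE 0.07, adjusted p = 0.387) against IgG. The annotated mRNAs are 494 and 784 bases long, and after correction for length and GC the difference from input was 0.15 (limma adjusted p = 0.144). The rps1001 mRNA was itself called against both controls, at 0.69 against input and 1.19 against IgG on the log2 scale by edgeR, with 773 and 777 CPM in input, 1174 and 1335 CPM with Slr1p and 550.4 CPM in IgG. For eS12, the log2 ratio of rps1202 to rps1201 was 0.50 and 0.49 in input, -0.36 and -0.31 with Slr1p and -0.49 in IgG. It turned from rps1202 to rps1201, with a limma difference of -0.83 (SE 0.04, adjusted p = 0.000737) from input and 0.15 (SE 0.05, adjusted p = 0.0847) from IgG. The rps1202 mRNA stood at 3489.8 and 2468 CPM in input, 2046 and 2524 CPM with Slr1p and 1289 CPM in IgG. These copies share 81.1% of their residues.

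The copy with more counts turned between input and Slr1p in 5 pairs, those of uS4, eS8, eS10, eS12 and eS17. In IgG it turned in 6, the same 5 and uS2. Turns were not counted for the other pairs of ribosomal protein genes, so no share over all pairs stands beside these numbers. Turns in counts do not allow for the lengths of the copies. Per kilobase, rps1002 lay above rps1001 in input already, at 1259 and 1353 against 986 and 992 CPM per kilobase. With Slr1p, rps801 stayed above rps802 in each library, at 5452 and 6400 against 5207 and 6253 CPM per kilobase. For eS8 the log2 ratio of rps802 to rps801 was -0.50 and -0.49 in input, 0.11 and 0.14 with Slr1p and 0.79 in IgG, so Slr1p lay between the controls.

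The ratios that set Slr1p apart from both controls in one direction numbered 5 of 22, in the eS1, eS4, eS6, uS11 and eS24 pairs, beside 3 of the 31 60S pairs and 15.1% of all 53 pairs. For eS4, the log2 ratio of rps403 to rps401 was -1.13 and -1.11 in input, -0.34 and -0.45 with Slr1p and -1.15 in IgG. Input and IgG were close together and both Slr1p libraries stood above them. By limma the difference was 0.72 (SE 0.05, adjusted p = 0.00114) against input and 0.75 (SE 0.07, adjusted p = 0.0034) against IgG, and it was called without each of the 4 replicated libraries and after correction for length and GC (0.77 and 0.82). The rps403 mRNA stood at 2736 and 1991 CPM in input, 2239 and 2579.5 CPM with Slr1p and 627 CPM in IgG, and its protein differs from that of rps401 at 1 residue. Some of their sequence is shared, in 6.85% of the windows of rps403 and 7.63% of those of rps401.

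For eS24, the log2 ratio of rps2402 to rps2401 was 1.08 and 0.92 in input, 0.64 and 0.69 with Slr1p and 1.51 in IgG. Slr1p was lowest, and the limma differences were -0.34 (SE 0.07, adjusted p = 0.014) and -0.84 (SE 0.09, adjusted p = 0.00412). The rps2401 mRNA stood at 1339 and 1266 CPM in input, 1559 and 1805 CPM with Slr1p and 569.8 CPM in IgG. Leaving out either Slr1p library removed both calls. For the uS11 pair, rps1402 to rps1401, the limma difference was 0.44 against input and 0.52 against IgG, the second not called without Slr1p replicate 2. For the eS1 pair, rps102 to rps101, it was -0.26 against input and -0.43 against IgG, and leaving out either Slr1p library removed both calls. For eS6, the substrate of S6 kinase in the TOR pathway, rps602 to rps601 differed by 0.50 (SE 0.04, adjusted p = 0.00128) against input and 0.39 (SE 0.05, adjusted p = 0.00749) against IgG with limma. The eS6 call against IgG was lost without either Slr1p library, and after correction for length and GC the values were -0.08 and -0.17 and neither was called.

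For eS26, the log2 ratio of rps2602 to rps2601 was 1.05 and 1.33 in input, 1.21 and 1.15 with Slr1p and 0.31 in IgG. Input and Slr1p overlapped, with a limma difference of -0.01 (SE 0.11, adjusted p = 0.951), while the difference from IgG was 0.88 (SE 0.13, adjusted p = 0.00922), the largest against IgG among the 22 pairs. That call was lost when either Slr1p library was left out.

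**Figure D4:**
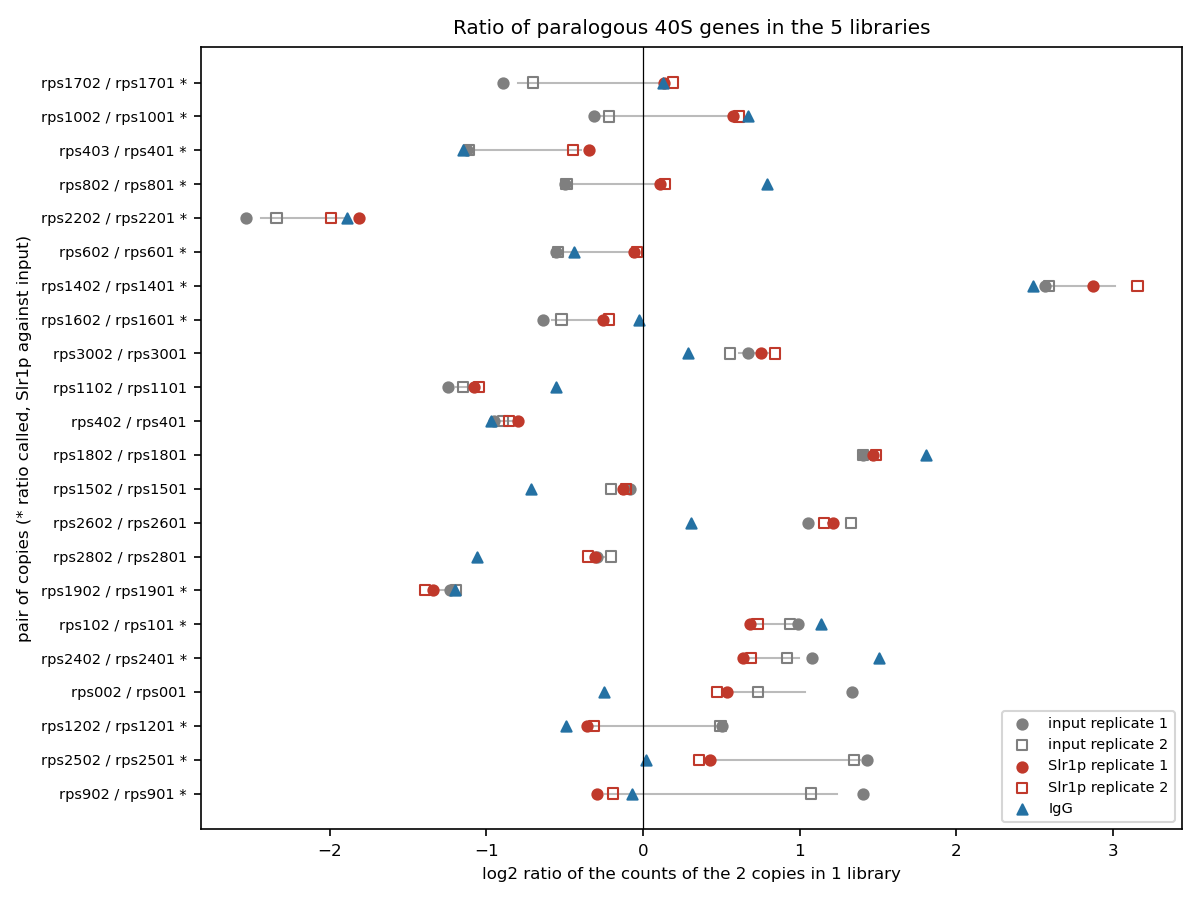
Log2 ratio of the counts of the 2 copies in each library for the 22 pairs of 40S genes, ordered by the difference between Slr1p and input; input is grey, Slr1p red, open squares are replicate 2 and IgG is a blue triangle. A star marks a ratio called between Slr1p and input with limma, and 0 marks equal counts: rps902/rps901 crosses from above 0 in input to below 0 with Slr1p, and rps1702/rps1701 and rps1002/rps1001 cross the other way.

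Of small-subunit proteins outside the symbol rule, 3 were examined. The mRNA of cpc2, the fission yeast RACK1 scaffold protein, was at 0.55 against input by log2 fold change and at 0.49 against IgG, the second not called. The ubiquitin fusion genes ubi3 and ubi5, which also give a 40S protein, were at 0.62 and 0.58 against input and 1.97 and 2.46 against IgG, and the last lay above every one of the 55 members. A list of 40S assembly factors, matched by symbol alone, gave 53 tested genes. Their products were not checked, so a shared symbol may have brought in another gene. Of the 53, 39 were higher than input and 5 lower, beside 35.0% and 34.2% of all genes, with a median of 0.66. Against IgG 15 of the 53 were higher and 19 lower, near the 34.0% and 32.3% of all genes, with a median of 0.03. For 40S proteins the medians in the same order were 0.21 and 1.33.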

How the data were processed

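The authors deposited unnormalised gene counts, as whole numbers, for 6727 genes in each of 5 libraries. Among the tools in the submitters' processing notes, listed without role or order, are HTSeq 0.6.1p2, STAR 2.6.0c, Trim Galore, FastQC 0.11.5 and bcl2fastq 2.20. Which build and annotation were used, and whether strand and multiply placed reads were considered in counting, is not given in the sources used here. For that reason counts of near-identical copies and of overlapping genes are uncertain. Per the labels' protocols the library kit was directional and reads were paired.

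Members and lists were chosen with earlier results of these data known, and the named genes were the extremes of each comparison, the extremes per kilobase in input, the pairs that moved most and members without a copy by symbol. Symbols, lengths and sequences are those RefSeq gives for ASM294v3, which 6562 identifiers matched and 165 did not. Of these, 31 matched once an added "_1" was dropped, rps3 among them. Values of 1 member by itself are not reported here, and it stays in the counts. Groups and replicate numbers came from the sample titles. The series text calls the replicates biological, and p-values measure the spread between these 2 libraries a group.

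The quasi-likelihood test of edgeR 4.0.16, run in R 4.3.3, was applied to the counts after TMM scaling, fitting a mean for each group and adjusting p by Benjamini-Hochberg. After its filter dropped 351 genes, 6376 were tested. Residual degrees of freedom were 2, with 13.5 prior ones. A gene was called at an adjusted p under 0.05. Copy ratios, log2 of counts plus 1, were tested with limma 3.58.1 over 53 pairs of 40S and 60S genes. The 95% Wilson interval of the 40S share in IgG, the shallowest library, was 6.93% to 6.96%, and such intervals cover counting error only. Proteins were placed in the head or body of the subunit from textbook knowledge. Alternatives were DESeq2 1.42.0, library totals, no filter, trend removal, leaving out each library and a replicate block. Ratios with the trend removed, and a wider rule for copies, were added after seeing the data. Promoters were taken from the genome, 250 bases before each annotated end, since no promoter table was given.

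The trend with length and GC content was first planned over all genes. Tested on simulated data, it left a residual correlation of fold change with length. The trend was therefore fitted, after the data were seen, on genes with at least 20 counts in every library and extended to the rest. That change alone did not remove the residual, which sat in the shortest genes. The simulated test passed once it was read only over genes with at least 20 counts, so removal stays poor for very short genes. The members, at 315 to 1270 bases, are longer than those. Trend-removed values depend on how the trend is fitted.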

Additional observations from a re-analysis of the deposited data

How the results depend on the processing

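Against IgG, 53 to 55 members were higher under DESeq2, library totals and no filter, and 39 to 54 higher and 0 lower when 1 library was left out. With the length and GC trend removed 37 were higher and 1 lower, and with abundance as well 22 and 6. Against input, leaving out 1 library gave 9 to 26 higher and 0 to 13 lower. Trend removal left 13 higher in both forms, with 18 lower for length and GC and 22 lower with abundance. Of the 6291 genes tested with abundance as well, 2105 were higher than input and 2344 lower. Between IgG and input, the members higher in IgG were 3 with DESeq2, 3 with library totals, 4 with length and GC removed and 9 with abundance as well, and 0 to 2 when 1 library was left out. The ratios of copies called ran from 9 to 16 against input and from 2 to 17 against IgG when 1 library was left out. Whether the replicate numbers pair the libraries cannot be told from 2 replicates a group. Deviations of same-numbered libraries had a correlation of -0.06 across genes and -0.24 across the members. With the replicate number as a block, 13 members were higher and 3 lower than input and 13 ratios were called. Of the 6307 genes tested with the block, 2126 were higher and 2081 lower. With the block and the length and GC trend removed, 11 members were higher and 14 lower, beside 2109 and 2105 of 6231 genes.

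Against input, leaving out 1 library turned the direction of 3 to 10 of the 55 members, none of them called with or without it, and against IgG it turned none. Against input, trend removal turned none of the members called in the main fit. It turned 2 members with length and GC removed, and 4 with abundance as well, that were called only after removal. Against IgG it turned 1 and 16 members that had been called. The cause was not tested. With length and GC removed, the log2 fold change was -0.30 for rps2402 against input, and -0.42 for rps2 and -0.10 for rps1201 against IgG. With abundance as well it was -0.28 for rps2502, -0.37 for rps2402 and -0.32 for rps20 against input. Against IgG 18 of the 55 were then below 0, of which 16 had been called higher. The value was -0.43 for rps102, -0.36 for rps601, -0.20 for rps1901, -0.30 for rps001, -0.19 for rps23, -0.23 for rps13, -0.46 for rps1202, -0.060 for rps27, -0.046 for rps3, -0.37 for rps2402, -0.015 for rps401, -0.017 for rps902, -0.021 for rps1902, -0.18 for rps1501, -0.53 for rps2, -0.11 for rps20 and -0.44 for rps1201. Library totals in place of TMM moved the median of all genes against IgG from 0.07 to -0.05, and the members' median from 1.33 to 1.20. Depth limits no member here, but the IgG values rest on 1 library and the spread on 2 residual degrees of freedom.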

Other observations

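Several 40S genes lie beside each other in the annotation. The rps29 gene (chromosome II, 516428 to 516879) is followed by rps27 (517321 to 517984), and these neighbours differed against input, with edgeR log2 fold changes of 1.18 and -0.61, both called. The rps2 gene (chromosome III, 2095135 to 2096036) and rps20 (2096527 to 2097017) had edgeR values of 1.09, called, and 0.12, not called. These neighbours were picked after their values were seen, and the difference between them was not tested.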
